A study of Saccharomyces cerevisiae with 9 samples.

Results

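Biotin synthesis and uptake in the yeast Saccharomyces cerevisiae was followed through the mRNA of 6 genes, BIO2, BIO3, BIO4, BIO5, VHT1 and BPL1, out of 5656 genes that the arrays read with a named probe set. The members were taken by gene symbol, with earlier results of these data known. Each is read by 1 probe set without a suffix for shared sequence, and all 6 were bright enough on average to be tested among 4537 genes. The arrays (Affymetrix Yeast Genome S98) compared 3 groups of 3 cultures of a strain deleted for CTH1 and CTH2, which encode mRNA-binding proteins. The vector group carried the plasmid pRS416 with no insert, the CTH1 group pRS416-CTH1 and the CTH2 group pRS416-CTH2, and the titles call them cth1cth2, CTH1cth2 and cth1CTH2. pRS416 is a low-copy plasmid selected by growth without uracil, and the promoter of either insert is not stated in the labels. All cultures were kept for roughly 6 hours at 30 °C, in exponential growth, in SC-Ura with 100 µM BPS (bathophenanthroline disulfonate), which binds iron and withholds it from the cells. No iron-replete or wild-type culture was analysed here. The labels do not say that each replicate was a separate transformant, so p-values measure only the spread between these samples, which may be technical.

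Biotin is the cofactor of carboxylases that feed fatty acid synthesis and refill the citric acid cycle. Many laboratory yeasts lack the first steps of its synthesis and must import biotin or a late precursor. Bio5 imports the precursor 7-keto 8-aminopelargonic acid, Bio3 adds an amino group taken from S-adenosylmethionine, Bio4 closes a ring to give dethiobiotin, and Bio2 inserts sulfur to finish the vitamin. Bio2, the biotin synthase, is a mitochondrial iron-sulfur enzyme, so the last step needs iron. Vht1 is the plasma membrane symporter that brings in ready-made biotin with protons and needs no iron. In yeast VHT1 is known as a target of the iron regulator Aft1, and iron shortage is known to turn cells from making biotin to importing it. Bpl1 is the ligase that joins biotin to the enzymes that use it. Cth1 and Cth2 bind AU-rich elements in mRNAs and promote their decay, and the question here is whether the synthesis genes and the transporter move apart when either protein is present.

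No difference between group means was larger than 0.69 on the log2 scale for any of the 6 genes. The 2 members with every CTH2 array below every vector array were the transporter VHT1 and the synthase BIO2, and 6.99% of all genes had the same separation. None of the 6 passed a limma adjusted p of 0.05 in any of the 3 comparisons. Over all genes limma called 0.287% between CTH2 and vector (13 of 4537), 0% between CTH1 and vector (0 of 4537) and 0.022% between CTH2 and CTH1 (1 of 4537, the CTH2 gene itself). The CTH2 gene on the plasmid is also among the 13, and its signal is high only in the group that carries it. The 13 calls became 1 without vector replicate 2 or 3 or without CTH2 replicate 1 or 2, became 2 without CTH2 replicate 3, 6 without vector replicate 1 and 26 without CTH1 replicate 2. The single call between CTH2 and CTH1 became 2 without CTH2 replicate 3 and 3 without CTH1 replicate 3. At an unadjusted limma p under 0.05, 9.35%, 6.9% and 7.47% of all genes passed in these comparisons in turn, and so did 1, 0 and 2 of the 6 members.

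The series as a whole bears on these values in a few ways. The targeted genes followed the labels, with CTH1 at a signal of 231 to 592 in its own group and at most 14.3 elsewhere, and CTH2 (listed as TIS11) at 3389 to 4498 in its own group and at most 10.2 elsewhere. Signals had been scaled to 1 target before deposit, and array medians ran from 153 to 184. The geometric mean signal of 10 ribosomal RNA control probe sets was 88.5 to 150 with CTH2, 129 to 268 with vector and 127 to 453 with CTH1. Of these 10, 8 had a lower mean with CTH2 than with vector, and 3 had every CTH2 array below every vector array. The widest gap was on a set for 25S, with 367 to 1010 with CTH2, 3349 to 4649 with vector and 884 to 6588 with CTH1. Short mRNAs read low in CTH1 replicate 3: the median deviation of genes of at most 400 nucleotides, minus that of genes over 900, was -0.68 there and between -0.07 and 0.21 elsewhere. The members have coding lengths of 714 (BIO4) to 2073 nucleotides (BPL1).

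**Figure D1:**
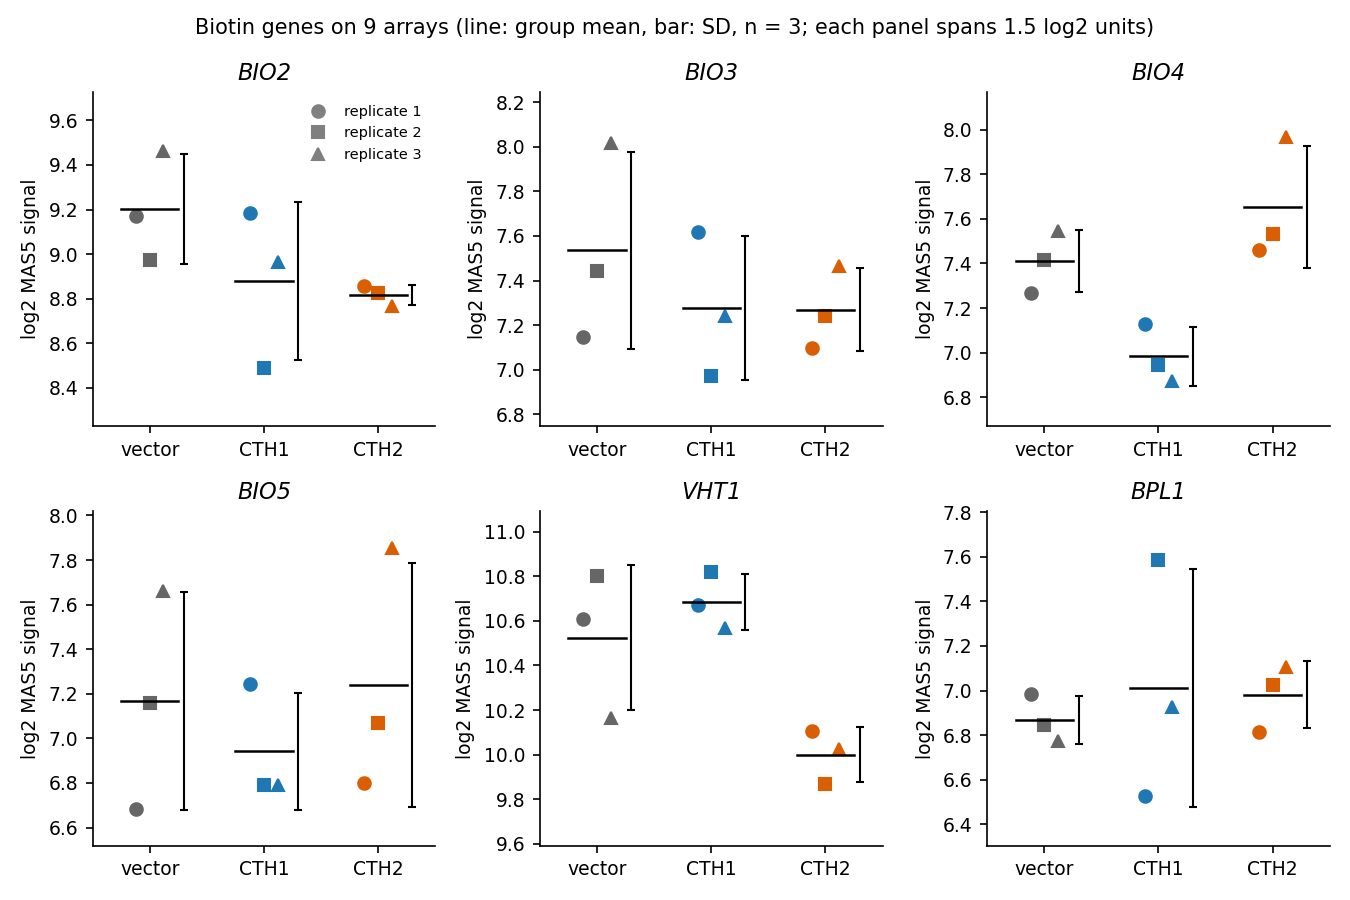
Log2 MAS5 signal of each of the 6 genes (vertical axis, 1.5 log2 units in every panel) on the 9 arrays by group, where marker shape gives the replicate, the line the group mean and the bar the SD (n = 3). VHT1 is lowest in the 3 CTH2 arrays and BIO4 in the 3 CTH1 arrays, while the groups overlap for BIO3, BIO5 and BPL1.

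VHT1, the biotin importer, had a MAS5 signal of 1562, 1782 and 1148 in vector replicates 1 to 3. In the CTH1 arrays it had 1633, 1804 and 1517, and in the CTH2 arrays 1102, 933 and 1044. Every CTH2 array therefore lay below every other array, although the highest of them (1102) came close to vector replicate 3 (1148). The group means of the signal were 1497 ± 322 for vector, 1651 ± 145 for CTH1 and 1026 ± 85.6 for CTH2 (SD, n = 3). The CTH2 group was 30.5% lower than vector, a log2 difference of -0.52 (SE 0.20, 95% interval -0.97 to -0.08, limma adjusted p = 0.469). That interval is for 1 gene and is not adjusted for the number of genes, and the unadjusted limma p was 0.0244. The same CTH2 arrays had low signals on some of the ribosomal RNA control probe sets, as given above, and their part in this result was not tested. An array signal is scaled to the whole RNA sample, so fewer transcripts per cell and a larger amount of other mRNA cannot be told apart.

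Against the CTH1 arrays, VHT1 in the CTH2 arrays was 37.8% lower, a log2 difference of -0.69 (SE 0.20, 95% interval -1.13 to -0.24, limma adjusted p = 0.450). Of 4537 differences in this comparison it was the 54th from the lowest, and 7.19% of all genes had CTH2 arrays wholly below the CTH1 arrays. Between CTH1 and vector the groups overlapped, with a difference of 0.16 (SE 0.20, 95% interval -0.28 to 0.61, limma adjusted p = 0.887) that became -0.02 without vector replicate 3. The comparisons share arrays and are not independent of each other. Leaving out vector replicate 2 gave -0.39 and leaving out vector replicate 3 gave -0.70 for CTH2 against vector, so the size, though not the direction, depends on which vector arrays are used.

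BIO2, the iron-sulfur biotin synthase, had a signal of 576, 503 and 706 in the vector arrays. The CTH1 arrays had 582, 359 and 500, and the CTH2 arrays 463, 454 and 436. The CTH2 arrays were close together and below all vector arrays, but they lay inside the range of the CTH1 arrays. The log2 means were 9.20 ± 0.25 for vector, 8.88 ± 0.36 for CTH1 and 8.82 ± 0.04 for CTH2 (SD, n = 3). BIO2 was 23.5% lower in the CTH2 group than in vector, a difference of -0.39 (SE 0.23, 95% interval -0.88 to 0.10, limma adjusted p = 0.620). The value was -0.26 without vector replicate 3, the array with the highest BIO2 signal. For CTH1 against vector the difference was -0.32 (SE 0.23, 95% interval -0.81 to 0.17, limma adjusted p = 0.814), and it was -0.13 without CTH1 replicate 2. The groups with CTH2 and CTH1 differed by -0.06 (95% interval -0.55 to 0.42, limma adjusted p = 0.983). The interval for CTH2 against vector holds both no difference and a change of -45.5%.

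BIO4, the dethiobiotin synthetase, stood apart in the CTH1 arrays rather than in the CTH2 arrays. Its signal was 154, 171 and 187 with vector, 140, 123 and 117 with CTH1 and 176, 185 and 250 with CTH2. Each CTH1 array lay below every vector and every CTH2 array, while vector and CTH2 overlapped. The log2 means were 7.41 ± 0.14, 6.98 ± 0.13 and 7.65 ± 0.27 for vector, CTH1 and CTH2 (SD, n = 3). CTH1 against vector gave -0.43 (SE 0.22, 95% interval -0.91 to 0.06, limma adjusted p = 0.741), and BIO4 was the only member of the 6 whose CTH1 arrays lay wholly below vector, as they did for 3.35% of all genes. CTH2 against CTH1 gave 0.67 (SE 0.22, 95% interval 0.19 to 1.15, limma adjusted p = 0.450), and 6.26% of all genes had CTH2 arrays wholly above CTH1. CTH2 against vector gave 0.24 (SE 0.22, limma adjusted p = 0.773), which became 0.09 without CTH2 replicate 3 and 0.12 with arrays scaled to a common median. BIO4 has the shortest coding sequence of the 6 genes, and CTH1 replicate 3, where short mRNAs read low, had its lowest signal. The difference between CTH1 and vector was -0.37 without that array and -0.44 after a correction for coding length.

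BIO3, the aminotransferase before BIO4 in the pathway, had 142, 174 and 259 with vector, 196, 126 and 151 with CTH1 and 137, 151 and 177 with CTH2. BIO5, the precursor importer, had 103, 143 and 202 with vector, 151, 111 and 111 with CTH1 and 111, 134 and 231 with CTH2. All groups overlapped for both genes, and their spread was wider than the distance between group means. BIO3 differed by -0.27 (SE 0.27, limma adjusted p = 0.788) in CTH2 and -0.26 (SE 0.27, limma adjusted p = 0.859) in CTH1, each against vector, and these became -0.03 and -0.02 without vector replicate 3. BIO5 differed by 0.07 (SE 0.32, limma adjusted p = 0.975) in CTH2 and -0.23 (SE 0.32, limma adjusted p = 0.897) in CTH1. The BIO5 value for CTH2 had no stable sign: it was -0.05 with arrays scaled to a common median and -0.08 after quantile normalization. BIO5 was the most variable of the 6 between replicates, with a within-group SD of 0.45 on the log2 scale against a median of 0.30 over all genes, while BIO4 (0.19) and VHT1 (0.21) varied least.

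BPL1, the ligase that attaches biotin, was the dimmest member. Its signal was 127, 115 and 109 with vector, 92.1, 192 and 122 with CTH1 and 112, 130 and 138 with CTH2. The CTH1 group held both the lowest and the highest array, and all groups overlapped. It differed from vector by 0.11 (SE 0.27, limma adjusted p = 0.932) in CTH2 and by 0.15 (SE 0.27, limma adjusted p = 0.924) in CTH1. The first became -0.01 with arrays scaled to a common median and -0.06 after quantile normalization, and the second became -0.14 without CTH1 replicate 2. BPL1 on CTH1 replicate 1 was the only member value under the signal of 98.4 that a gene's mean had to exceed to be tested. BIO3, BIO4 and BIO5 were also within 0.74 log2 units of that limit on average, so these 4 genes were read near the dim end of the range.

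**Figure D2:**
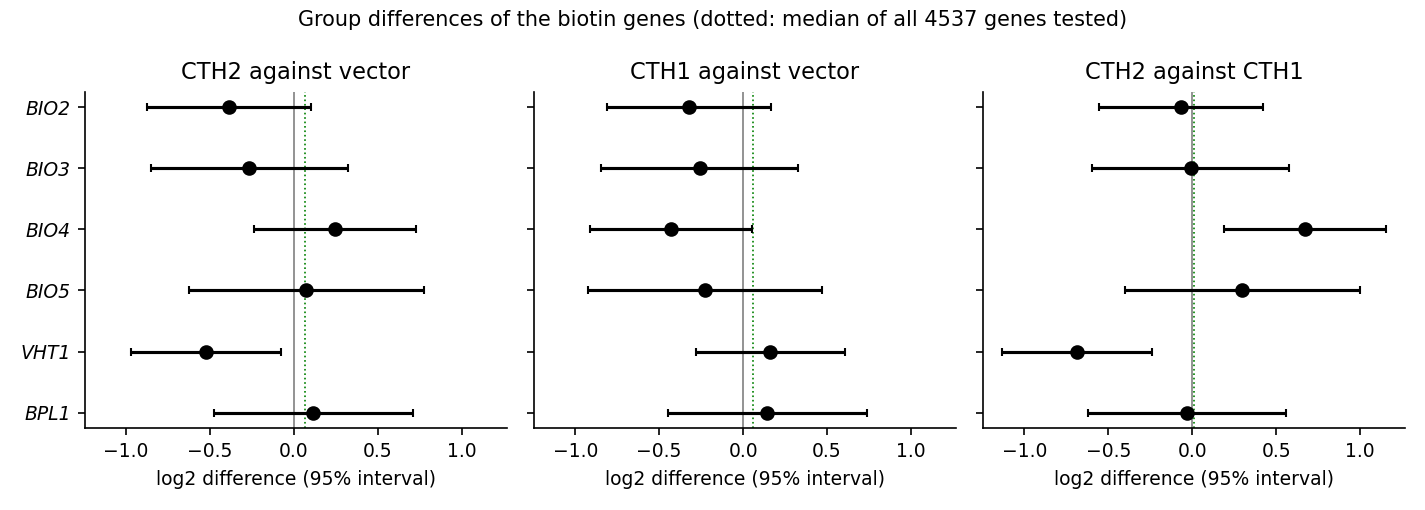
Log2 difference (horizontal axis) of each member in the 3 comparisons, with unadjusted 95% intervals from limma and the median of all 4537 genes tested as a dotted line. The interval of VHT1 lies below 0 in both comparisons of CTH2, that of BIO4 lies above 0 for CTH2 against CTH1, and all others span 0.

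The members lay on both sides of 0 in each comparison. Between CTH2 and vector 3 of the 6 had differences below 0 and 3 above, with a median of -0.10 against 0.07 for all genes tested. Between CTH1 and vector 4 were below 0 and 2 above, with a median of -0.24 against 0.06. Relative to the median of all genes, VHT1 was at -0.59 and BIO2 at -0.45 in CTH2 against vector. Scaling each array to a common median moved the median difference of all genes by -0.12 in that comparison, and VHT1 then stood at -0.65 (limma adjusted p = 0.273) and BIO2 at -0.51 (limma adjusted p = 0.513).

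The comparison of synthesis with uptake was made within each array, as log2 BIO2 minus log2 VHT1. Different probe sets have no common scale, so the number on an array has no meaning of its own and only its change between groups is read. It was -1.44, -1.83 and -0.70 on the vector arrays, -1.49, -2.33 and -1.60 on the CTH1 arrays and -1.25, -1.04 and -1.26 on the CTH2 arrays. The vector arrays were spread widely and overlapped both other groups, and vector replicate 3 had both the highest BIO2 and the lowest VHT1 of its group. The CTH2 arrays lay above all CTH1 arrays, by 0.62 in the mean (exact permutation test, two-sided, p = 0.1, which is the lowest possible with 3 arrays a group, and 0.3 after Benjamini-Hochberg adjustment over the 3 comparisons), which became 0.36 without CTH1 replicate 2. CTH2 differed from vector by 0.14 (two-sided exact permutation p = 0.7), which became 0.08 without vector replicate 1, -0.11 without vector replicate 2, 0.45 without vector replicate 3 and 0.07 without CTH2 replicate 2. CTH1 differed from vector by -0.48 (two-sided exact permutation p = 0.4), which became -0.74 without vector replicate 2, -0.17 without vector replicate 3 and -0.22 without CTH1 replicate 2. A shift from synthesis towards uptake would give a lower value. CTH1 lay lower than vector in the mean, by less than the SD of the vector arrays (0.57). Of the CTH1 arrays only replicate 2 (-2.33), the array with the lowest BIO2 signal, lay below every vector array. CTH1 replicates 1 (-1.49) and 3 (-1.60) lay within the range of the vector arrays. With 3 arrays a group the test cannot decide whether either group shifted.

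The mean of the 4 synthesis genes BIO2 to BIO5 minus VHT1 is given as a description. It was -3.04, -3.05 and -1.99 with vector, -2.88, -3.52 and -3.10 with CTH1 and -2.55, -2.20 and -2.01 with CTH2. The CTH2 arrays were above all CTH1 arrays, with group means of -2.26 ± 0.27 and -3.17 ± 0.32 (SD, n = 3), and vector fell between them at -2.70 ± 0.61. Both measures subtract the same VHT1 values and share BIO2, so this is no second result. Between CTH2 and CTH1, VHT1 differed by -0.69 and BIO2 by -0.06, so the gap in BIO2 minus VHT1 lay mostly in VHT1. BIO3, BIO4 and BIO5 differed by -0.01, 0.67 and 0.30.

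**Figure D3:**
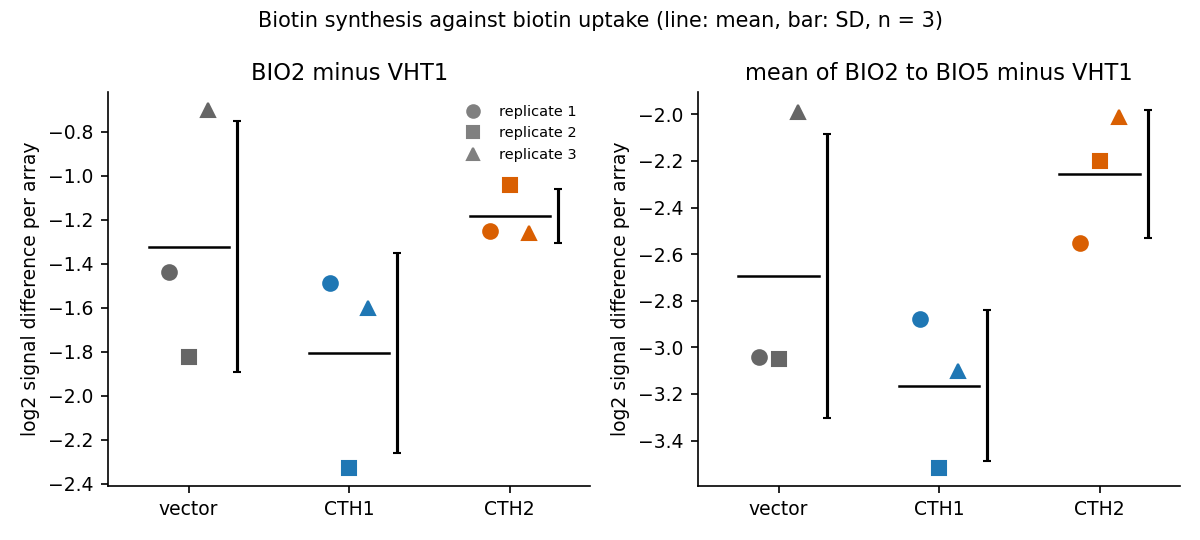
Log2 signal of BIO2 (left) or the mean of BIO2 to BIO5 (right) minus that of VHT1 on each array (vertical axis), with marker shape for the replicate, the line for the group mean and the bar for the SD (n = 3). The CTH2 arrays lie above the CTH1 arrays in both panels, and the vector arrays overlap with both other groups in both. Both panels use the same VHT1 and BIO2 values, so they are not independent.

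BIO5, BIO4 and BIO3 lie side by side on chromosome XIV in the RefSeq annotation of assembly R64, with no other protein-coding gene between them. BIO2 and VHT1 are both on chromosome VII but not next to each other, and BPL1 is on chromosome IV. Relations between the 6 genes, and of each with the spike-in controls, made a family of 21 correlations over the 9 arrays, and none passed Benjamini-Hochberg adjustment. BIO3 and BIO5 had Pearson's r = 0.78 (exact permutation p = 0.0118, adjusted 0.121) and Spearman's rho = 0.82 (exact permutation p = 0.0108, adjusted 0.113), and r = 0.79 without the 2 arrays farthest from the BIO3 median. BIO4 and BIO5 had r = 0.73 (exact permutation p = 0.0249, adjusted 0.121) and rho = 0.70 (exact permutation p = 0.0433, adjusted 0.227), with r = 0.43 without the 2 farthest arrays. BIO3 and BIO4 had r = 0.38 (exact permutation p = 0.316, adjusted 0.474) and rho = 0.48 (exact permutation p = 0.194, adjusted 0.370), with r = 0.64 without the 2 farthest arrays. In deviations from the group means, given as a description, r was 0.96 for BIO4 with BIO5, 0.87 for BIO3 with BIO5 and 0.73 for BIO3 with BIO4. Over all genes tested, the 99th percentile of r with BIO5 was 0.76. Vector replicate 3, CTH1 replicate 1 and CTH2 replicate 3 were the highest of their group for all 3 neighbours. The same 3 arrays also had the highest mean ribosomal RNA control signal of their group (268, 453 and 150). The part of such array-wide differences in these correlations was not tested.

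**Figure D4:**
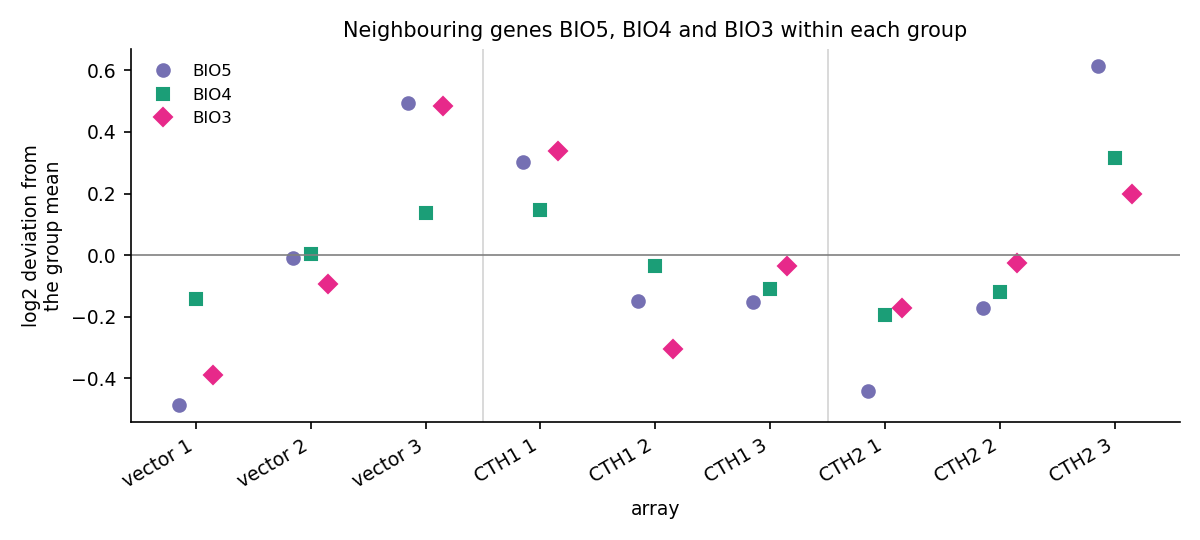
Deviation of log2 signal from the mean of its group (vertical axis) on each of the 9 arrays for the neighbouring genes BIO5, BIO4 and BIO3. In each group the same array is highest for all 3 genes: vector replicate 3, CTH1 replicate 1 and CTH2 replicate 3. These arrays also have the highest mean ribosomal RNA control signal of their group.

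Pairs outside the neighbours included negative relations. BIO2 and BPL1 had r = -0.77 (exact permutation p = 0.0209, adjusted 0.121), rho = -0.83 (exact permutation p = 0.00827, adjusted 0.113) and r = -0.61 without the 2 farthest arrays. In deviations from the group means their r was -0.84. BIO2 and BIO3 had r = 0.77 (exact permutation p = 0.0171, adjusted 0.121) and rho = 0.58 (exact permutation p = 0.108, adjusted 0.324). Their r was 0.20 without the 2 farthest arrays and 0.72 in deviations from the group means, so its size depends on the arrays used. BIO4 and VHT1 had r = -0.72 (exact permutation p = 0.0288, adjusted 0.121), rho = -0.70 (exact permutation p = 0.0433, adjusted 0.227) and r = -0.76 without the 2 farthest arrays. In deviations from the group means over all 9 arrays the r of BIO4 and VHT1 was -0.20, so their relation lay mostly between the group means. BIO2 and VHT1, the 2 genes of the within-array comparison, had r = -0.04 (exact permutation p = 0.926, adjusted 0.926) and rho = 0.17 (exact permutation p = 0.678, adjusted 0.867). Their r was 0.79 without the 2 farthest arrays but -0.70 in deviations from the group means, so it has no stable sign.

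The arrays also carry control probe sets for the Escherichia coli biotin genes bioB, bioC and bioD, which report labelled RNA spiked into the hybridisation and say nothing about the yeast pathway. Their geometric mean signal over 7 probe sets ran from 166 in CTH1 replicate 2 to 428 in CTH2 replicate 3. CTH1 replicate 2 was also the array with the lowest BIO2 and BIO3 and the highest BPL1. With the spike-ins r was 0.58 for BIO5, 0.58 for BIO3, 0.53 for BIO4, 0.45 for BIO2, -0.43 for VHT1 and -0.67 for BPL1, with rho of 0.63, 0.53, 0.60, 0.15, -0.53 and -0.33 in the same order. The exact permutation p of these 6 values of r ran from 0.0611 to 0.259 (adjusted 0.214 to 0.418), and their part in the members' values was not tested.

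For each member the 3 genes with the most similar profile were taken by Pearson's r over the 9 arrays, among 4536 others. These values are high by selection. Nearest to VHT1 were PCA1, a metal-transporting ATPase (r = 0.92), ECM13 (0.91) and FET5, a multicopper oxidase of the vacuole that works in iron transport (0.91). As with VHT1, these 3 had lower values in CTH2 against vector (-0.80, -0.58 and -0.36) and values above 0 in CTH1 against vector (0.17, 0.10 and 0.27). Choosing genes by r over the same 9 arrays favours such shared group differences, so they are no separate result. Nearest to BIO2 were MRPL20, a mitochondrial ribosomal protein (r = 0.95), LRO1, an acyltransferase of storage lipid synthesis (0.94), and LYS4, the iron-sulfur homoaconitase of lysine synthesis (0.93). Against vector, MRPL20 differed by -0.54 in CTH2 and -0.46 in CTH1, LRO1 by -0.17 and -0.14, and LYS4 by -0.81 and -0.78. BIO3 was closest to PLP2 (0.92), RCR2 (0.91) and ESF2 (0.91), BIO4 to YJL218W (0.90), POP5 (0.89) and YNCD0016C (0.89), and BIO5 to USO1 (0.94), CEF1 (0.92) and ALG11 (0.89). BPL1 was closest to FAL1 (0.95), ATG31 (0.94) and the poly(A)-binding protein PAB1 (0.93).

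The genes for proteins that carry biotin lay on both sides of 0. Of 5 tested genes for biotin-dependent or biotinylated proteins, none was called in any comparison. In CTH2 against vector 2 were below 0 and 3 above, from -0.55 to 0.34, with a median of 0.03. PYC1, a pyruvate carboxylase, had a signal of 1358, 1210 and 1324 with vector and 720, 990 and 977 with CTH2 (-0.55, SE 0.24, limma adjusted p = 0.511). Its CTH2 arrays lay wholly below vector, as for 6.99% of all genes. Its close paralog PYC2 may share signal with it. ACC1, the acetyl-CoA carboxylase of fatty acid synthesis, differed by -0.44 (SE 0.22, limma adjusted p = 0.561), or -0.26 without CTH2 replicate 2. The biotin regulator VHR1, which activates VHT1 and BIO5 when biotin is low, had 280, 215 and 213 with vector, 299, 424 and 342 with CTH1 and 287, 308 and 245 with CTH2. All CTH1 arrays of VHR1 were above vector, as for 6.9% of all genes (0.58, limma adjusted p = 0.657), and CTH2 overlapped vector (0.25, limma adjusted p = 0.770). Its paralog VHR2 differed by 0.33 in CTH1 (limma adjusted p = 0.810) and 0.13 in CTH2 (limma adjusted p = 0.882).

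Most tested genes in a list for mitochondrial iron-sulfur assembly had lower values with CTH2 than with vector, and which of them serve Bio2 was not tested. Of 9 tested genes for mitochondrial iron-sulfur assembly and the related sulfur-inserting enzyme Lip5, 8 had differences below 0 and 1 was above, at 0.34. The median of the 9 was -0.66, against 0.07 for all genes tested, and none was called. With CTH1, 6 of the 9 were below 0, with a median of -0.28 against 0.06 for all genes. The assembly factors NFU1 (-1.15, SE 0.31, limma adjusted p = 0.186) and BOL3 (-1.13, SE 0.35, limma adjusted p = 0.246) were lowest. In CTH1 they had -0.85 (limma adjusted p = 0.657) and -1.36 (limma adjusted p = 0.606). BOL3 is a short mRNA, and its CTH1 value was -1.28 without the array on which such mRNAs read low and -1.20 after the coding-length correction. Among 16 tested iron uptake genes under Aft1, 15 had differences below 0 in CTH2 against vector. Their values ran from -1.42 to 0.24, with a median of -0.22 against 0.07 for all genes tested. Of the 16, 1 was called, beside 13 of 4537 over all genes (0.287%). VHT1, at -0.52, had a lower value than the median of the 16. With CTH1, 10 of the 16 were below 0, with a median of -0.07 against 0.06 for all genes. The gene called with CTH2 was FIT1, a cell wall mannoprotein that holds siderophore-bound iron, at 2191, 1921 and 1387 with CTH2 against 4969, 5906 and 3828 with vector, and it fell by 1.42 on the log2 scale (SE 0.26, limma adjusted p = 0.0413). That call was lost in 10 of 19 alternatives, with a limma adjusted p of 0.0141 to 0.235 over them. It was lost when vector replicate 1, 2 or 3 or CTH2 replicate 1, 2 or 3 was left out, while the difference stayed between -1.59 and -1.23. The heme oxygenase HMX1 differed by -0.86 in CTH2 (SE 0.20, limma adjusted p = 0.122). In CTH1 FIT1 was at -0.09 (limma adjusted p = 0.952) and HMX1 at -0.05 (limma adjusted p = 0.966).

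**Figure D5:**
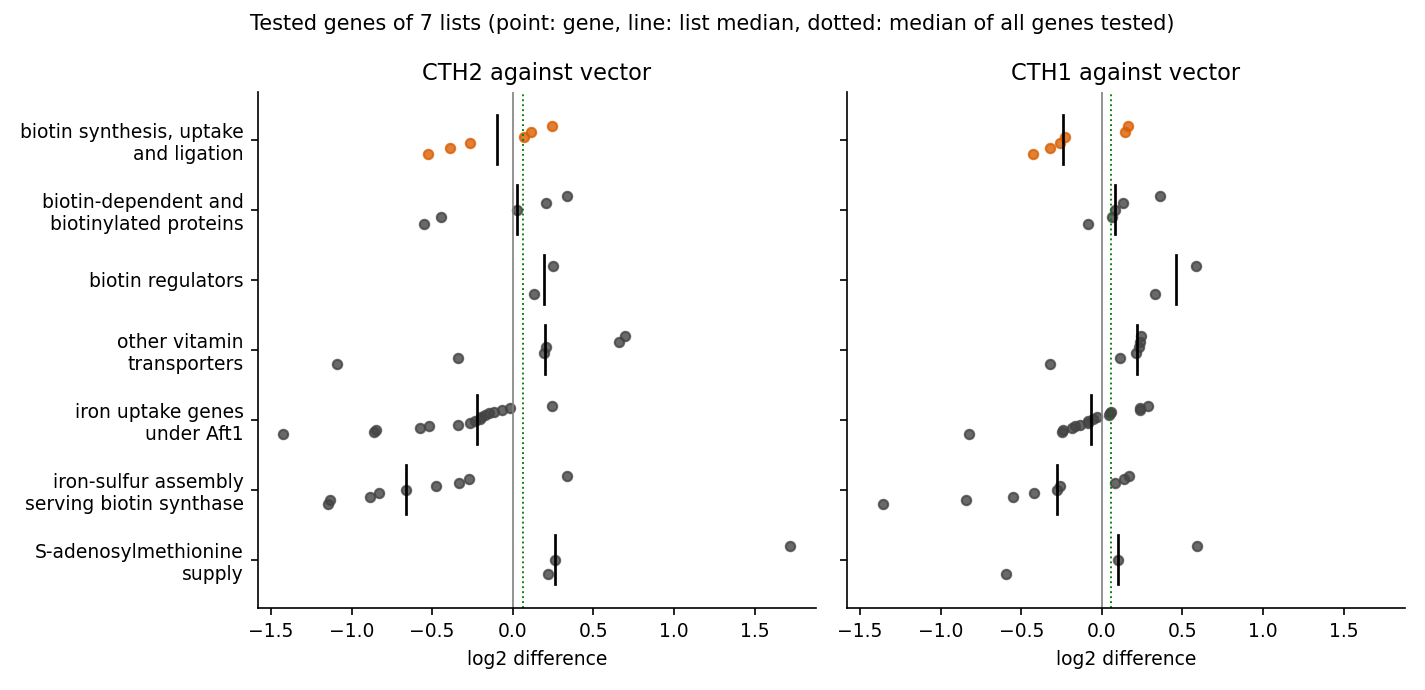
Log2 difference of each tested gene (points, horizontal axis) in 7 gene lists, with the list median as a line and the median of all genes tested as a dotted line, for CTH2 (left) and CTH1 (right) against vector. The dotted line is at 0.07 with CTH2 and 0.06 with CTH1. The biotin genes (top row) lie on both sides of 0 in each panel, while 8 of 9 iron-sulfur assembly genes and 15 of 16 Aft1 iron uptake genes lie below 0 with CTH2, and 6 of 9 and 10 of 16 with CTH1.

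Transporters of other vitamins lay on both sides of 0. Of 6 tested, 4 had values above 0 in CTH2 against vector and 2 below, and none was called. TNA1, the nicotinic acid permease and a relative of Vht1, had 0.70 (SE 0.21, limma adjusted p = 0.241), while the riboflavin transporter MCH5 had -1.09 (SE 0.26, limma adjusted p = 0.135). Of 3 tested genes that supply S-adenosylmethionine, used by both Bio3 and Bio2, none was called. The synthetase SAM2 had 507, 252 and 152 with vector and 1008, 1025 and 673 with CTH2, with no overlap, as for 9.48% of all genes on the higher side (1.72, SE 0.42, limma adjusted p = 0.135). Its near-identical partner SAM1, whose transcript may share signal with it, had 0.26 (SE 0.26, limma adjusted p = 0.788).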

How the data were processed

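Total RNA of 9 cultures was read on Affymetrix arrays. The authors deposited a linear intensity for each probe set, made with MAS5 per the submitters' processing notes (version not given). The authors' scaling left a trimmed mean near 500.5 on each array. No batch is given. Arrays have no read depth, and their number limits the precision.

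Of 9335 probe sets, 6504 had 1 gene in the platform annotation, giving 5656 genes by RefSeq (R64) gene number. Signals were floored at the 10th percentile (43.2) and log2-transformed, the highest-mean probe set was kept, and genes above the 25th percentile (98.4) were tested, 4537 in all. limma 3.58.1 (R 4.3.3) was fitted to all 9 arrays with an intensity trend and Benjamini-Hochberg adjustment, with a threshold of 0.05. Correlations used exact permutations. The fit was tested on simulated data with independent noise and planted differences larger than those of any member. It does not bear on differences of the members' size.

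Members, lists and tests were chosen with earlier results of these data known. The text names the 6 members, the 3 genes nearest to each in profile, every called list gene and the 2 with the largest difference in CTH2 against vector. The lists also held DUR1,2 and BOL1, which had no probe set of their own, and THI73 and IBA57, which were too dim to test. PYC2 is named only as a paralog. Same-numbered arrays were not paired: their deviations correlated at -0.58 to 0.21, with 2 of 9 pairs over 0.1.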

Additional observations from a re-analysis of the deposited data

How the results depend on the processing

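In the 19 alternatives tried, 9 of which left out an array, none of the 6 members was called in any comparison, and 320 of 342 values of single members kept their direction. Many of the 342 could not change. Leaving out an array of the group not compared, the replicate block, the fit of 2 groups alone and dropping the filter leave a difference as it was. The mean over probe sets does too, as each member has 1. The count is therefore no measure of stability. CTH2 against vector ran from -0.70 to -0.39 for VHT1 and from -0.51 to -0.26 for BIO2, where the settings could change it. The calls over all genes in CTH2 against vector (13) were 1 with a floor at the 25th percentile, 27 after the coding-length correction, 2 with no filter on dim genes, 22 with the 2 groups alone and 72 with array weights, and ran from 1 to 26 as single arrays were left out. With the replicate block there was 1, although the numbers were not found to pair the arrays. In CTH2 against CTH1 (1 call) there were 2 with that floor, 3 with no filter and 26 with array weights, and 1 to 3 as single arrays were left out. BIO2 minus VHT1 ran from -0.11 to 0.45 in CTH2 against vector, from -0.74 to -0.17 in CTH1 against vector and from 0.36 to 0.78 in CTH2 against CTH1 as single arrays were left out.

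Values near 0 changed sign, with causes not tested. For CTH2 against vector, BIO5 was -0.050 with median scaling, -0.0821 with quantile normalization and -0.13 with array weights, and BPL1 was -0.00741 and -0.056 under those 2 scalings. For CTH1 against vector, array weights gave BPL1 -0.14 and HMX1 0.00527. For CTH2 against CTH1, the length correction gave BIO3 0.015 and BPL1 0.013, and array weights gave BIO5 -0.030 and BPL1 0.24. With single arrays left out, the ranges that crossed 0 were BIO5 (-0.23 to 0.32), SAM1 (-0.00098 to 0.46) and VHR2 (-0.0070 to 0.23) in CTH2 against vector, BIO5 (-0.47 to 0.020), BPL1 (-0.14 to 0.39), VHT1 (-0.019 to 0.30), FIT1 (-0.27 to 0.14) and HMX1 (-0.17 to 0.040) in CTH1 against vector, and BIO2 (-0.26 to 0.088), BIO3 (-0.16 to 0.16), BIO5 (-0.0073 to 0.52) and BPL1 (-0.27 to 0.26) in CTH2 against CTH1. BIO3, BIO4, BIO5 and BPL1 lay near the dim end of the signals tested, which limits what their differences can show.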
